A study of Homo sapiens with 15 samples.

Results

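The response of H1975-OR cells to 1,25(OH)2D3 was read from 6 of the 15 RNA sequencing libraries of the study. Libraries 2a, 2b and 2c came from H1975-OR cultures with vehicle. Libraries 3a, 3b and 3c came from cultures exposed for 96 h to the active form of vitamin D, 1,25(OH)2D3, at 100 nM. The study's methods state that treatment was renewed during the 96 h, the last time a few hours before the end. The libraries were chosen by these sample labels and by nothing measured in them. The parental line H1975 was derived from a human lung adenocarcinoma and is labelled with the EGFR alleles T790M and L858R. H1975-OR is its osimertinib-resistant derivative, obtained by chronic exposure to osimertinib, an inhibitor of mutant EGFR, and grown with 500 nM of it. All 6 libraries therefore share the resistance and the EGFR alleles. Per the study's methods, a medium with charcoal-stripped serum took the place of the growth medium at treatment and held vehicle, osimertinib, 1,25(OH)2D3 or both agents, so that osimertinib is listed for its own groups and not for vehicle. RNA was taken from 3 separate passages of this single resistant line, so the errors describe passages of one line and not different resistant lines. The comparison asks which genes 1,25(OH)2D3 changes in cells that have become resistant to osimertinib.

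1,25(OH)2D3 acts by binding the vitamin D receptor (VDR), a nuclear receptor that pairs with a retinoid X receptor on DNA. The preferred element is a direct repeat of 2 hexamers separated by 3 bases, and the best known product is CYP24A1, the enzyme that inactivates 1,25(OH)2D3 itself. In epithelial cells the receptor is also known for effects on cell adhesion, calcium handling and growth.

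Levels are given as CPM, the standard unit of a count scaled to the total of its library, with 3 libraries per group. Standard errors (SE) are derived from the test of each gene. Each is the absolute log2 fold change divided by the square root of the F statistic. Levels are compared here only within a gene. Totals were 4724371 to 5240477 estimated counts in the vehicle libraries and 4833034 to 6140120 in the 1,25(OH)2D3 libraries. Library 3a, which the study set aside, stood apart from the other 5. Its 13 mitochondrially encoded mRNAs took 1.54% of counts, against 0.666 to 0.774% in the others. In the study's groups outside these 6 libraries letter a was also highest. The share there was 1.04 to 1.05% in 1a, 4a and 5a, against 0.424 to 0.701% in letters b and c. The log2 levels of 3a correlated less with the rest of its group (mean r = 0.883, against 0.911 to 0.929). Values without 3a are therefore given for the genes described that then no longer passed and for list medians that then moved by more than 1.5 times. The lung lineage factor NKX2-1 was present at 31.7 to 74.2 CPM, and the keratins KRT7, KRT8 and KRT18 lay between 301 and 2532 CPM, whereas NAPSA and the surfactant genes SFTPA1, SFTPB and SFTPC stayed under 1.5 CPM in each library. Of 10 markers of blood, endothelial and liver cells, 8 stayed under 3 CPM, among them the T cell gene CD3E at 0 in all 6 libraries, while CDH5 reached 7.12 CPM and CD68 lay between 7.09 and 27.6 CPM.

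Of 12350 genes tested, 40 were higher with 1,25(OH)2D3 and 7 were lower (edgeR quasi-likelihood test with the replicate letter as a block, Benjamini-Hochberg adjusted p under 0.05), which is 0.324% and 0.0567% of the genes. That test was fitted over all 12 H1975-OR libraries, so the libraries with osimertinib also set the errors and p-values. Of the 40, the brush border phosphatase ALPI, CYP24A1, the collagen gene COL1A1 and the adhesion molecule CDH1 had the largest fold changes. NTNG2, MELTF, GCLC and C15orf48 followed. The 7 included UBE2C, a gene of mitosis, the histone gene HIST1H2BJ and ANKRD1, a readout of the transcription cofactor YAP. The median log2 fold change was 1.74 among the 40, the same with ALPI at its lower bound, and −0.87 among the 7. In 33 of the 40 the log2 fold change was above 1, and in 15 above 2. All 47 kept their direction in each of the 3 letter pairs. Of the 40, 39 had no overlap between the groups, as did 4 of the 7. The 47 were chosen by a test on these same libraries, so pair agreement and separation are given as a description. Over all genes tested, 6.94% did not overlap with 1,25(OH)2D3 higher and 6.47% with 1,25(OH)2D3 lower. At an unadjusted p under 0.05, 779 of the 12350 genes were higher and 629 lower. The list counts at that threshold below stand beside these. The count over all genes with DESeq2 is given in the closing section on processing. Without 3a, 31 of the 40 and 5 of the 7 still passed, and with 12 further genes 48 passed in all. In the 5 libraries the study kept, fitted alone and without the block, 8 of the 40 and 0 of the 7 passed. Fits of the vehicle and 1,25(OH)2D3 libraries alone also gave far fewer genes, as listed in the closing section on processing. The number of genes passing fell when a vehicle library was left out: 27 genes passed without 2a, 19 without 2b and 13 without 2c, and 28 passed without 3c. Without the block the same 12 libraries gave 18 genes higher and 0 lower (363 lower at an unadjusted p under 0.05).

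**Figure D1:**
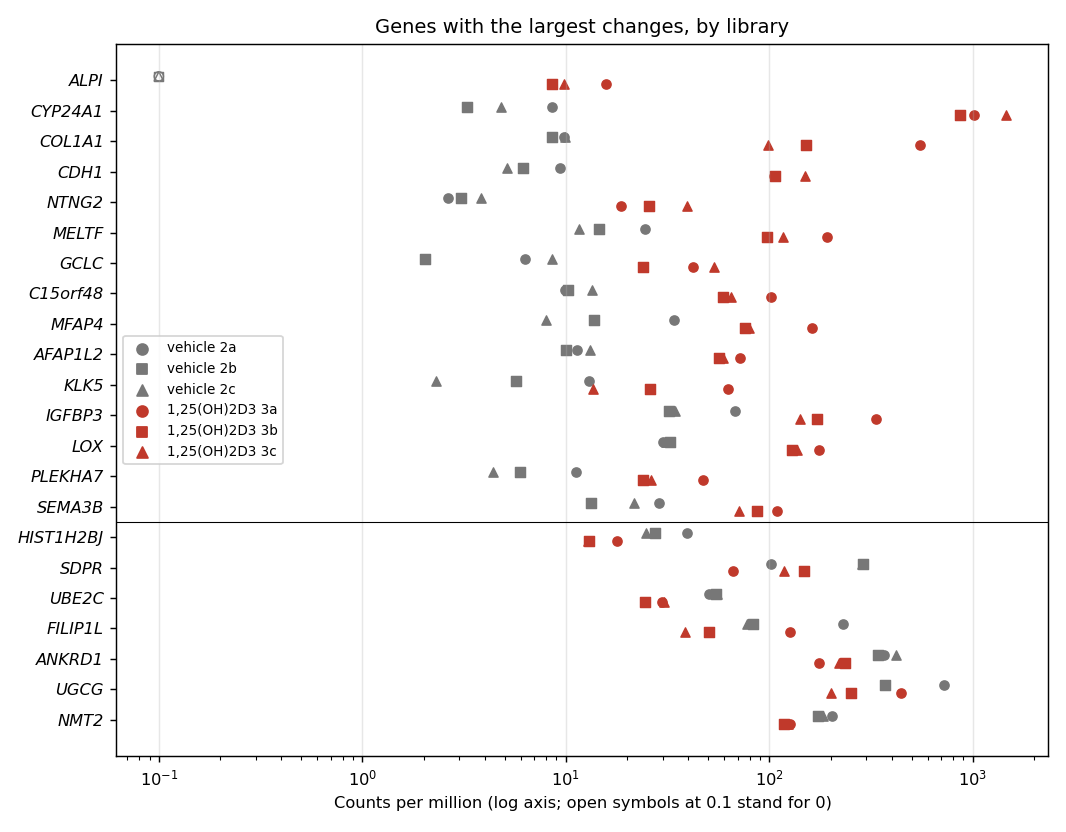
CPM (log axis) in the 3 vehicle libraries (grey) and the 3 1,25(OH)2D3 libraries (red) for the 15 largest rises and the 7 falls that passed the test. Circles, squares and triangles are letters a, b and c, and open symbols at the left edge are values of 0. CYP24A1 went from under 10 CPM to 862 CPM or more, while among the falls the groups of UGCG, FILIP1L and SDPR overlapped.

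CYP24A1 (chromosome 20, 54153446 to 54173986, minus strand, GRCh38), the 24-hydroxylase that breaks down 1,25(OH)2D3, was at 8.54 CPM in 2a, 3.27 CPM in 2b and 4.78 CPM in 2c. It was at 1012 CPM in 3a, 862 CPM in 3b and 1458 CPM in 3c. Each treated library was far above each vehicle library, and the log2 fold change was 7.69 (SE 0.29, adjusted p = 4.47e-06). CYP24A1 was also the single gene of the 47 that passed under all 15 alternative analyses. The receptor itself did not pass. VDR was at 26.6, 30.0 and 33.8 CPM in 2a, 2b and 2c and at 52.0, 35.8 and 38.1 CPM in 3a, 3b and 3c (log2 fold change 0.45, SE 0.19, adjusted p = 0.43). The groups did not overlap, and 3a was the highest. Its partner RXRA was at 10.6, 25.1 and 18.2 CPM with vehicle and at 28.7, 12.8 and 24.3 CPM with 1,25(OH)2D3 (log2 fold change 0.24, SE 0.51, adjusted p = 0.88), and the sign of that value turned to −0.09 without 3a. CYP27B1, the enzyme that makes 1,25(OH)2D3, was too low to be tested. In the list of 13 tested genes of vitamin D metabolism, receptor partners and cofactors, CYP24A1 was the single one that passed. The largest decrease by value in that list, among genes at 10 CPM or more, was DHCR7, which diverts the vitamin D precursor to cholesterol, at −0.26 (adjusted p = 0.69).

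ALPI (chromosome 2, 232456125 to 232460753, plus strand), the intestinal alkaline phosphatase of the enterocyte brush border, had 0 counts in all 3 vehicle libraries. It had 100 counts in 3a, 40 in 3b and 53 in 3c, or 15.8, 8.52 and 9.76 CPM. The rise was at least 18.9-fold, taking 3 counts per library as the limit for the vehicle group (adjusted p = 0.031). ALPI reached the count minimum through libraries with the active form of vitamin D alone and so had to be higher. Its fold change and adjusted p are therefore given as a description. ALPI lies beside near-identical copies of alkaline phosphatase genes, so reads could be split among them and its level is uncertain. It did not pass without 3a (adjusted p = 0.10).

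Of the other established targets of the receptor, 2 passed in edgeR, both higher. IGFBP3 (chromosome 7), a carrier protein that restrains insulin-like growth factors, was at 68.1, 32.1 and 34.6 CPM in 2a, 2b and 2c. It reached 333 CPM in 3a, 172 CPM in 3b and 142 CPM in 3c (log2 fold change 2.24, SE 0.20, adjusted p = 0.0019). The lowest treated library lay above the highest vehicle library. SEMA3B, a secreted semaphorin that guides axons and is described as a tumour suppressor in lung, went from 28.7, 13.3 and 21.6 CPM to 110, 86.9 and 70.9 CPM (log2 fold change 2.10, SE 0.22, adjusted p = 0.0042).

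With CYP24A1, these were the 3 members that passed in a list of 30 known receptor targets, of which 24 could be tested. In all, 21 of the 24 lay above 0, with a median log2 fold change of 1.79, against −0.003 over all genes tested. At an unadjusted p under 0.05, 13 of the 24 were higher and 0 lower, and DESeq2 called 8, all higher. Without 3a the median was 1.12. Over the 13 members with at least 10 counts in every library it was 1.00. In 11 of the 24 the groups did not overlap with 1,25(OH)2D3 higher, against the 6.94% of all genes given above. Some members, such as KLK6 with under 1.2 CPM in each vehicle library, reached the count minimum through libraries with 1,25(OH)2D3 alone and so had to be higher. The list was also chosen with earlier results of these data known. Its counts and medians are therefore given as a description. CLMN, a calponin-like membrane protein, was at 13.01, 11.4 and 9.94 CPM with vehicle and at 52.9, 31.1 and 29.7 CPM with 1,25(OH)2D3, but its adjusted p was 0.090. The cell cycle inhibitor CDKN1A was at 48.4, 44.8 and 63.5 CPM with vehicle and at 60.2, 83.9 and 109 CPM with 1,25(OH)2D3 (log2 fold change 0.66, SE 0.19, adjusted p = 0.24). DUSP10, a MAPK phosphatase, had an adjusted p of 0.12 with all libraries and 0.037 without 3a. CAMP, the cathelicidin antimicrobial peptide, stayed under 7 CPM in every library, with a log2 fold change of −0.69 (adjusted p = 0.71). The largest decreases by value among members at 10 CPM or more were HILPDA (−0.15) and NRIP1 (−0.05), neither of which passed, and both lay above 0 without 3a.

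The promoters of ALPI, MELTF, IGFBP3 and SEMA3B are shown as examples of receptor-type hexamers near the start sites of the 15 largest rises. ALPI holds the most, MELTF and IGFBP3 hold overlapping ones, and IGFBP3 and SEMA3B are the established receptor targets among them with a promoter at hand. GCLC, AFAP1L2 and C15orf48, also among the 15, hold hexamers in the window searched and are not printed, while KLK5 and LOX hold none there. Each line gives the 250 bases before the RefSeq start site (GRCh38.p14), read along the gene, with the hexamers in capitals. The hexamer searched, on both strands, was AGGTCA, allowing also G for the first base, T for the third and G for the fifth, which makes 8 hexamers. ALPI is at chr2:232455903-232456152 on the plus strand, MELTF at chr3:197029818-197030067 on the minus strand, IGFBP3 at chr7:45921273-45921522 on the minus strand and SEMA3B at chr3:50272869-50273118 on the plus strand.
ALPI: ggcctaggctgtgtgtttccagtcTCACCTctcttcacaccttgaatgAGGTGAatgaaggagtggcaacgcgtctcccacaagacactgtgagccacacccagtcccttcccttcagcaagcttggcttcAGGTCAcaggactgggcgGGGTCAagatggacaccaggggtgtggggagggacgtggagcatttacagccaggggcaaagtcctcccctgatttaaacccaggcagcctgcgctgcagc
MELTF: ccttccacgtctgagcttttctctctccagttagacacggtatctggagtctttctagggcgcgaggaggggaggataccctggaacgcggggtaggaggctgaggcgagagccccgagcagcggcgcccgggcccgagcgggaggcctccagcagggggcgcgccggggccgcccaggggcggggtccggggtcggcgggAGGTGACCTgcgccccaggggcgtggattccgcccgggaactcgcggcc
IGFBP3: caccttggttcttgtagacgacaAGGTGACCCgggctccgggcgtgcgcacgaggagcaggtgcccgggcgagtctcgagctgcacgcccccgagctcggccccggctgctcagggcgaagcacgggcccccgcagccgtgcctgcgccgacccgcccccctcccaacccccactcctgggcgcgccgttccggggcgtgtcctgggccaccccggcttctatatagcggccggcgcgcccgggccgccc
SEMA3B: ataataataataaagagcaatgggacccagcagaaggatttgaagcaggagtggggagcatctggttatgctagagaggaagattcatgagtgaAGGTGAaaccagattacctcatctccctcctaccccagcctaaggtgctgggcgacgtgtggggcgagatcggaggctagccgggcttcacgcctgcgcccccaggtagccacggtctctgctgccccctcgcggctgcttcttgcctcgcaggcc

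ALPI held 4 such hexamers, at 226, 202, 119 and 101 bases before the start site. In MELTF and in IGFBP3 a hexamer on one strand overlapped one on the other, which gives the runs AGGTGACCT and AGGTGACCC. A RefSeq promoter was at hand for 27 of the 40 genes that rose and for 6 of the 7 that fell, over a window of 300 bases that also takes in the first bases of the gene. At least 1 hexamer lay in 21 of the 27 (77.8%) and in 4 of the 6 (66.7%), against 54.7% of the 10070 tested genes with a promoter. A direct repeat of 2 of these hexamers with 3 bases between them was found in 0 of the 27 and 0 of the 6, and in 16 of the 10070 (0.159%). A match is a match of letters, and the window holds no distant element. CYP24A1 and CDH1 were not analysed here for lack of an entry.

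CDH1 (chromosome 16, 68737292 to 68835537, plus strand), which encodes E-cadherin, the adhesion molecule of epithelial junctions, had one of the largest rises. It was at 9.35 CPM in 2a, 6.13 CPM in 2b and 5.16 CPM in 2c, and at 105 CPM in 3a, 107 CPM in 3b and 150.3 CPM in 3c. The log2 fold change was 4.20 (SE 0.33, adjusted p = 8.65e-04) and 4.53 without 3a. The difference in log2 CPM was 3.43 in pair a, 4.04 in pair b and 4.76 in pair c. PLEKHA7, which ties E-cadherin junctions to microtubules, was at 11.2, 5.93 and 4.396 CPM with vehicle and at 47.2, 24.1 and 26.3 CPM with 1,25(OH)2D3 (log2 fold change 2.20, SE 0.22, adjusted p = 0.0039). The groups again did not overlap.

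Of the 34 genes of the epithelial list 23 were tested, and CDH1 alone passed in edgeR, with 14 above 0 and 9 below. At an unadjusted p under 0.05, 5 were higher and 3 lower, and DESeq2 called 4 higher and 1 lower. The median log2 fold change was 0.20, and −0.06 without 3a. CLDN4, a tight junction claudin, was at 39.3, 64.4 and 52.0 CPM with vehicle and at 91.5, 105 and 78.3 CPM with 1,25(OH)2D3. These groups did not overlap, but the log2 fold change of 0.83 (SE 0.18) did not pass (adjusted p = 0.13). With DESeq2 it did (adjusted p = 0.0066). CLDN1 had the opposite sign, at 96.2, 26.6 and 25.8 CPM against 69.0, 10.9 and 11.4 CPM (log2 fold change −0.96, adjusted p = 0.14), and so did the junction protein OCLN (−0.64, adjusted p = 0.28). KRT7 lay at 0.64 (adjusted p = 0.16).

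Markers of the mesenchymal state showed no common direction, with a median of 0.01 over 20 tested genes (−0.00077 without 3a), 11 above 0 and 9 below. FN1, fibronectin, was the single one that passed, and it was higher. It went from 65.1, 51.7 and 50.3 CPM to 227, 164 and 124.5 CPM (log2 fold change 1.59, SE 0.17, adjusted p = 0.0045). VIM, the intermediate filament of mesenchymal cells, was at 2893, 3879 and 4156 CPM with vehicle and at 3283, 3813 and 4765 CPM with 1,25(OH)2D3, so the groups overlapped closely (log2 fold change 0.12, SE 0.09, adjusted p = 0.63). The transcription factor ZEB1 had a log2 fold change of −1.20 with an SE of 0.60 (adjusted p = 0.47). MMP2, a matrix metalloproteinase, was at 0.813, 7.36 and 9.56 CPM in 2a, 2b and 2c and at 1.89, 2.13 and 2.95 CPM in 3a, 3b and 3c. The groups overlapped because of 2a, and the log2 fold change of −0.78 (SE 0.77) did not pass (adjusted p = 0.71).

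In the list of collagens and their enzymes 2 of 19 tested genes passed, both higher, and 17 of the 19 lay above 0 (median 0.41). DESeq2 called 3, all higher. Members that reach the count minimum mainly in a single group lean towards that group. COL1A2, for example, was at 2.24, 0.409 and 0.382 CPM with vehicle and at 8.98, 3.20 and 4.05 CPM with 1,25(OH)2D3. Counts and medians in this and the other lists are therefore given as a description. COL1A1 (chromosome 17), the main chain of type I collagen, was at 9.76, 8.58 and 9.94 CPM in 2a, 2b and 2c. It was at 549 CPM in 3a, 151 CPM in 3b and 98.6 CPM in 3c (log2 fold change 4.64, SE 0.65, adjusted p = 0.017). All treated libraries were higher, but 3a was more than 3 times the next. Without it the log2 fold change was 3.54 (adjusted p = 0.0029). LOX, the copper enzyme that cross-links collagen, had closely spaced values, at 30.1, 32.5 and 31.2 CPM with vehicle and at 176, 129 and 136.5 CPM with 1,25(OH)2D3 (log2 fold change 2.22, SE 0.19, adjusted p = 0.0015). P4HA1, a prolyl hydroxylase, was the lowest of the list's genes at 10 CPM or more, at −0.02 (0.17 without 3a).

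MFAP4, a protein of elastic microfibrils, went from 34.2, 13.7 and 8.03 CPM to 162, 76.1 and 79.6 CPM (log2 fold change 2.60, SE 0.34, adjusted p = 0.012), but its adjusted p was 0.056 without 3a. LTBP2, a latent TGF-beta binding protein of microfibrils, went from 22.2, 25.3 and 17.4 CPM to 112, 74.4 and 59.1 CPM (log2 fold change 1.92, SE 0.24, adjusted p = 0.011). It was the single gene of 36 tested in the TGF-beta and BMP list that passed in edgeR (26 above 0, median 0.23, and 0.10 without 3a), and DESeq2 called 3, all higher. LTBP3 had a log2 fold change of 1.77 (adjusted p = 0.35), which was 0.61 without 3a. At the other end ACVR2A stood at −1.14 (adjusted p = 0.55). CTGF, a matricellular TGF-beta target, was at 292, 214 and 277 CPM with vehicle and at 377, 101 and 87.9 CPM with 1,25(OH)2D3. The value in 3a was above, and those in 3b and 3c below, all vehicle libraries, so the adjusted p was 0.60 with 3a and 0.046 without it.

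Of the 10 tested genes of laminin-332 and the hemidesmosome, which fix epithelia to the basement membrane, 0 passed in edgeR (4 at an unadjusted p under 0.05, and 1 with DESeq2), although 8 lay above 0 (median 0.68). LAMB3 was at 77.7, 107 and 106 CPM with vehicle and at 218, 296 and 295 CPM with 1,25(OH)2D3 (log2 fold change 1.48, SE 0.41, adjusted p = 0.24). PLEC, which links hemidesmosomes to keratins, was at 238, 382.5 and 381 CPM with vehicle and at 1692, 590 and 598 CPM with 1,25(OH)2D3 (adjusted p = 0.28). Among the genes of the list at 10 CPM or more DST had the lowest value, at −0.02.

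MELTF, a membrane-bound relative of transferrin, rose from 24.6, 14.5 and 11.7 CPM to 193, 96.9 and 117 CPM (log2 fold change 3.02, SE 0.23, adjusted p = 8.59e-04). KLK5, a secreted serine protease, differed widely between letters. It was at 13.01, 5.72 and 2.29 CPM in 2a, 2b and 2c and at 62.7, 25.99 and 13.6 CPM in 3a, 3b and 3c. The lowest treated library was just above the highest vehicle library, while the difference within each letter was between 2.11 and 2.38 on the log2 scale (fitted log2 fold change 2.33, SE 0.29, adjusted p = 0.0097). NTNG2, a netrin-G that binds neuronal membranes, went from 2.64, 3.07 and 3.82 CPM to 18.6, 25.6 and 39.6 CPM (log2 fold change 3.08, SE 0.34, adjusted p = 0.0053). With SEMA3B it was 1 of the 2 genes that passed of 28 tested in the axon guidance list (21 above 0, median 0.28, and 0.10 without 3a). DESeq2 called 4 of the 28 higher and 1 lower. SEMA3A was at 329, 179 and 144 CPM with vehicle and at 175, 130.2 and 100.2 CPM with 1,25(OH)2D3 (log2 fold change −0.63, adjusted p = 0.091), and NRP2, a semaphorin receptor, was at −1.12 (adjusted p = 0.41).

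The adaptor AFAP1L2, an actin-associated activator of Src, went from 11.4, 10.0 and 13.2 CPM to 71.5, 56.9 and 59.5 CPM (log2 fold change 2.46, SE 0.21, adjusted p = 0.0015). C15orf48, which encodes a small mitochondrial protein of the respiratory chain, went from 9.96, 10.2 and 13.4 CPM to 102, 59.0 and 64.7 CPM (log2 fold change 2.68, SE 0.28, adjusted p = 0.0042). In both genes the treated libraries were 4 times the vehicle libraries or more.

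GCLC, the catalytic subunit of the first enzyme of glutathione synthesis, was at 6.30, 2.04 and 8.60 CPM with vehicle and at 42.0, 23.9 and 53.8 CPM with 1,25(OH)2D3 (log2 fold change 2.94, SE 0.32, adjusted p = 0.0045). It was the single one that passed of 17 tested targets of the oxidative stress factor NRF2 listed here (10 of 17 above 0, median 0.37, and 0.14 without 3a), and DESeq2 called 3, all higher. HMOX1, heme oxygenase, passed without 3a (adjusted p = 0.017, and 0.064 with it). NQO1, the member most used as a readout of NRF2, was at −0.30 (adjusted p = 0.50), and TKT was at −1.04 (adjusted p = 0.43). PFKP, a phosphofructokinase, rose by 0.72 (SE 0.10, adjusted p = 0.017) and was the single one of 25 tested glycolysis and hypoxia genes to pass (median −0.01, and 0.05 without 3a). CTSD, the lysosomal protease cathepsin D, went from 388, 622 and 563 CPM to 1387, 1404 and 1526 CPM (log2 fold change 1.48, SE 0.25, adjusted p = 0.047), the single one of 23 tested lysosomal genes to pass in edgeR, while DESeq2 called 3, all higher. Its adjusted p was 0.10 without 3a.

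The remaining genes that rose had log2 fold changes between 0.87 and 1.84. They included the zinc-binding protein CRIP1, whose values were among the closest, at 27.7, 26.8 and 25.0 CPM with vehicle and at 89.1, 82.2 and 77.0 CPM with 1,25(OH)2D3 (log2 fold change 1.64, SE 0.12, adjusted p = 8.10e-04). TIMP2, an inhibitor of metalloproteinases, was higher by 1.52, and by 1.12 without 3a. It was at 148, 134 and 106 CPM with vehicle and at 682, 278 and 236 CPM in 3a, 3b and 3c. The growth factor carrier IGFBP4 was higher by 1.51, and the actin-severing protein GSN by 0.91. MALL, a proteolipid of membrane rafts, was the one gene of the 40 whose groups overlapped. It was at 10.6, 40.9 and 54.9 CPM in 2a, 2b and 2c and at 25.7, 123 and 180 CPM in 3a, 3b and 3c, so that each letter showed a rise while letter a was low in both groups.

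**Figure D2:**
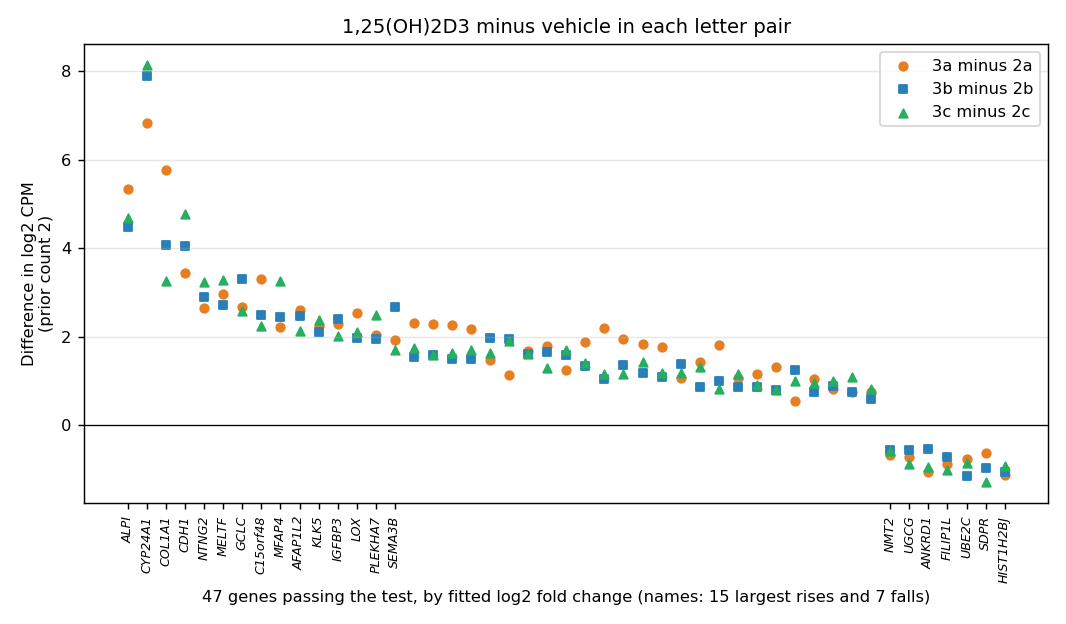
Difference in log2 CPM (prior count 2) between the 1,25(OH)2D3 and the vehicle library of each letter, for the 47 genes that passed, ordered by fitted log2 fold change, with names under the 15 largest rises and the 7 falls. All points of the 40 genes on the left lie above 0 and all points of the 7 on the right below it, and the medians of the 40 were 1.93 in pair a, 1.59 in pair b and 1.64 in pair c.

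Among the genes that fell, UBE2C, a ubiquitin-conjugating enzyme of the anaphase-promoting complex, was at 50.6, 54.6 and 55.4 CPM with vehicle and at 29.6, 24.5 and 30.4 CPM with 1,25(OH)2D3 (log2 fold change −0.93, SE 0.14, adjusted p = 0.021). The groups stood clearly apart. The histone gene HIST1H2BJ went from 39.5, 27.6 and 24.7 CPM to 17.8, 13 and 12.9 CPM (log2 fold change −1.05, SE 0.17, adjusted p = 0.034), but it shares sequence with other histone H2B copies and its value is uncertain. ANKRD1, a nuclear cofactor widely used as a readout of YAP activity, went from 365, 341 and 421 CPM to 175, 235 and 220.0 CPM (log2 fold change −0.85, SE 0.11, adjusted p = 0.012). NMT2, an N-myristoyltransferase, had the smallest change of the 47, at −0.60 (SE 0.09, adjusted p = 0.023), from 202.5, 173 and 185 CPM to 127, 118 and 124 CPM.

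In the other 3 genes that fell, the groups overlapped because the level differed between letters. SDPR, the caveola protein also called cavin 2, was at 102, 288.5 and 287 CPM in 2a, 2b and 2c and at 66.5, 148.5 and 117.5 CPM in 3a, 3b and 3c (log2 fold change −0.96, SE 0.13, adjusted p = 0.016). FILIP1L, a filamin-interacting protein, was at 231, 83.6 and 77.8 CPM with vehicle and at 126, 50.7 and 38.7 CPM with 1,25(OH)2D3 (log2 fold change −0.87, SE 0.14, adjusted p = 0.046). UGCG, which makes glucosylceramide, was at 725, 371 and 370.4 CPM with vehicle and at 442.5, 252 and 201.5 CPM with 1,25(OH)2D3 (log2 fold change −0.72, SE 0.10, adjusted p = 0.017). FILIP1L and HIST1H2BJ did not pass without 3a (adjusted p = 0.055 and 0.10).

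Genes of the dividing cell lay mostly below 0, with small differences. Of 95 tested genes that mark S phase or G2 and M phase, 81 were below 0 and 14 above. The median log2 fold change was −0.34, and −0.36 without 3a. The median was −0.51 in pair a, −0.13 in pair b and −0.45 in pair c. UBE2C was the single one that passed in edgeR. At an unadjusted p under 0.05, 28 of the 95 were lower and 1 higher, and DESeq2 called 8, all lower. Over all 12350 genes tested, 629 were lower and 779 higher at that unadjusted threshold. In 18 of the 95 the groups did not overlap with 1,25(OH)2D3 lower, against the 6.47% given above for all genes. The S phase genes had a median of −0.31 over 43 and the G2 and M phase genes one of −0.37 over 52. HMGB2, a chromatin protein of dividing cells, was at 83.8, 38.6 and 47.8 CPM with vehicle and at 28.5, 35.2 and 22.5 CPM with 1,25(OH)2D3 (log2 fold change −0.95, SE 0.25, adjusted p = 0.23). MKI67, the proliferation antigen, was at 87.9, 56.2 and 42.1 CPM with vehicle and at 248.6, 57.5 and 30.8 CPM with 1,25(OH)2D3. The high value in 3a set the sign of its log2 fold change, which was 0.54 with 3a and −0.31 without it. RRM1 was at 142.5, 0 and 0 CPM with vehicle and at 92.6, 0 and 79.6 CPM with 1,25(OH)2D3, so its level jumped between 0 and a high value regardless of treatment.

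The DNA replication and repair list had 30 of 37 tested genes below 0 (median −0.30). In edgeR and in DESeq2 0 passed, with 9 at an unadjusted p under 0.05. MCM3, a subunit of the replicative helicase, was at 32.7, 20.6 and 19.7 CPM with vehicle and at 8.19, 11.3 and 0.737 CPM with 1,25(OH)2D3 (log2 fold change −1.64, SE 1.36, adjusted p = 0.65). Cyclins, CDK inhibitors and E2F factors of G1 had a median of −0.21 over 26 tested genes. CDK2 stood at −0.58 (adjusted p = 0.26). In edgeR 0 of the 26 passed, with 6 at an unadjusted p under 0.05 and 1 passing with DESeq2.

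In each of the other lists 0 genes passed in edgeR. At an unadjusted p under 0.05 these lists held between 0 and 7 genes, and with DESeq2 between 0 and 3 passed. Over all genes tested, 1408 of 12350 were under that unadjusted threshold. Sterol and fatty acid synthesis had 16 of 23 tested genes below 0 and a median of −0.26. In that list FASN was at 397 CPM in 3a but between 81.1 and 112 CPM in the other 5 libraries. Interferon-stimulated genes had 23 of 28 below 0 (median −0.17, and −0.01 without 3a). Genes of TNF, NF-kB and chemokine signaling had 18 of 24 above 0 (median 0.20). There TNFRSF1A, a TNF receptor, was at 13.2, 7.76 and 16.3 CPM with vehicle and at 19.7, 81.4 and 104 CPM with 1,25(OH)2D3. It did not pass with 3a (log2 fold change 2.25, adjusted p = 0.090) and did without it (adjusted p = 0.017). Calcium transport and binding genes had a median of 0.25 over 20 (0.15 without 3a), with CALM3 at 50.6, 57.0 and 84.9 CPM against 6.30, 22.2 and 20.5 CPM (log2 fold change −2.07, SE 0.39, adjusted p = 0.080) and ITPR3 at 0.99 (adjusted p = 0.12). The lists for MAPK output, for EGFR and its ligands, and for the unfolded protein response had medians of −0.01, 0.14 and 0.04, and of −0.07, −0.11 and 0.00014 without 3a, so that the sign of the EGFR list turned. EGFR itself was at 103, 176 and 173 CPM with vehicle and at 238, 218 and 202 CPM with 1,25(OH)2D3 (log2 fold change 0.56, SE 0.21, adjusted p = 0.35). The mitochondrially encoded mRNAs had a median of 0.73, which was 2.43 in pair a and 0.07 without 3a.

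**Figure D3:**
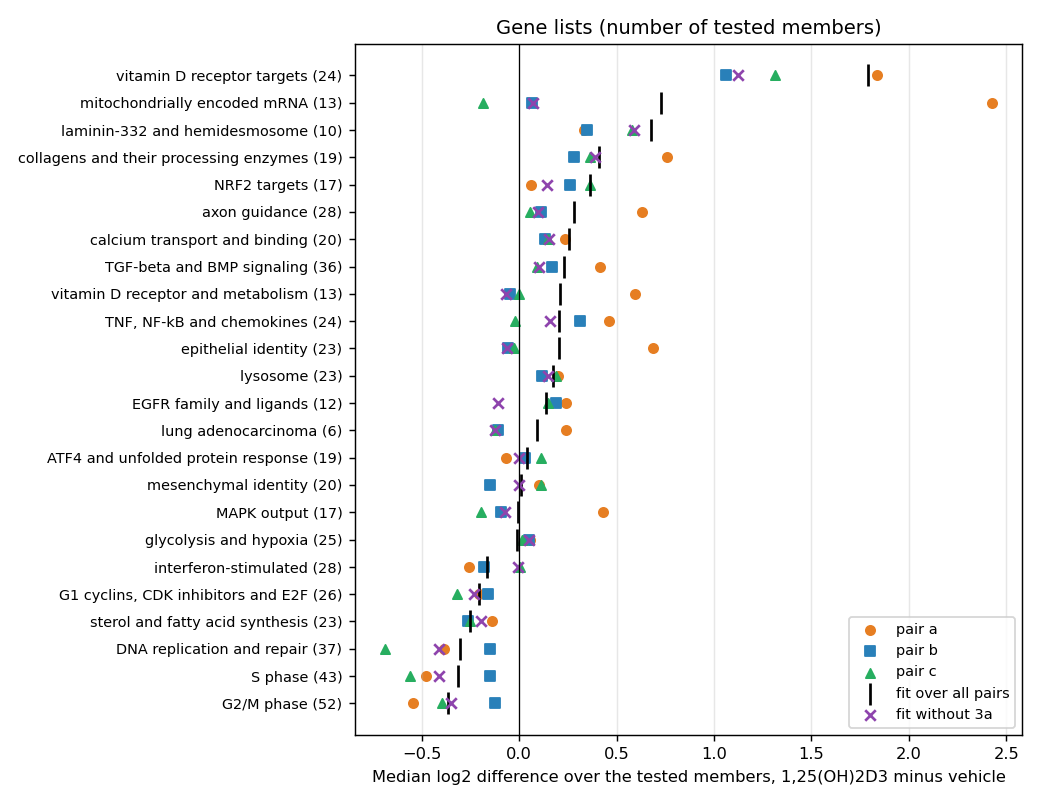
Median log2 difference, 1,25(OH)2D3 minus vehicle, over the tested members of each gene list, whose number is in brackets. Symbols give the 3 letter pairs, the black bar the fit over all pairs and the cross the fit without 3a. In the fit over all pairs the receptor target list lies highest, at 1.79, and the phase lists lowest, while the mitochondrial list is high in pair a alone. The lists were chosen with earlier results of these data known, so the medians are a description.

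The same 47 genes were read in H1975-OR cells that had 1,25(OH)2D3 added to osimertinib for 96 h (5a, 5b and 5c), against osimertinib alone (4a, 4b and 4c). These 6 libraries share no library with the comparison above, although all 12 enter one fit and share its error estimate. Over all genes tested, 49.8% lay above 0 and 50.2% below in that comparison. There 17 genes were higher (0.138%) and 5 lower (0.0405%), and those 5 were all MTRNR2L genes, near-identical copies of the mitochondrial ribosomal RNA gene whose reads cannot be assigned with certainty. All 40 genes that rose lay above 0 with osimertinib as well, and 13 of them passed. All 7 that fell lay below 0, and 0 passed in edgeR (5 at an unadjusted p under 0.05, and 1 with DESeq2).

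CYP24A1 was at 9.13, 3.45 and 6.88 CPM with osimertinib and at 1056, 666 and 902 CPM with the combination (log2 fold change 7.10, SE 0.28, adjusted p = 7.14e-06). CDH1 was at 6.66, 4.87 and 2.43 CPM with osimertinib and at 67.4, 43.7 and 39.1 CPM with the combination (log2 fold change 3.42, SE 0.33, adjusted p = 0.0042). COL1A1 was at 11.03, 26.4 and 10.5 CPM against 80.9, 123 and 104 CPM, a log2 fold change of 2.74 (SE 0.59) that did not pass (adjusted p = 0.19). ANKRD1 was at 496, 613 and 613 CPM against 470.2, 569 and 577 CPM (log2 fold change −0.09, SE 0.11). CLDN4 had a log2 fold change of 0.96 with osimertinib, and the phase genes a median of −0.33, close to that without it.

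For 39 of the 40 the log2 fold change was larger without osimertinib, with a median of 1.74 against 1.08 with it, and for the 7 the medians were −0.87 and −0.29. These genes were chosen by the comparison without the drug, and the medians are therefore given as a description. The difference between both effects was tested for each gene and 0 of 12350 passed (edgeR, smallest adjusted p = 0.35), with 466 at an unadjusted p under 0.05. With DESeq2, 13 passed, among them ANKRD1 of the 47. For LTBP2 the effect with osimertinib was lower by 1.41 on the log2 scale (SE 0.34, adjusted p = 0.99), and for CYP24A1 by 0.59 (SE 0.36, adjusted p = 0.99).

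**Figure D4:**
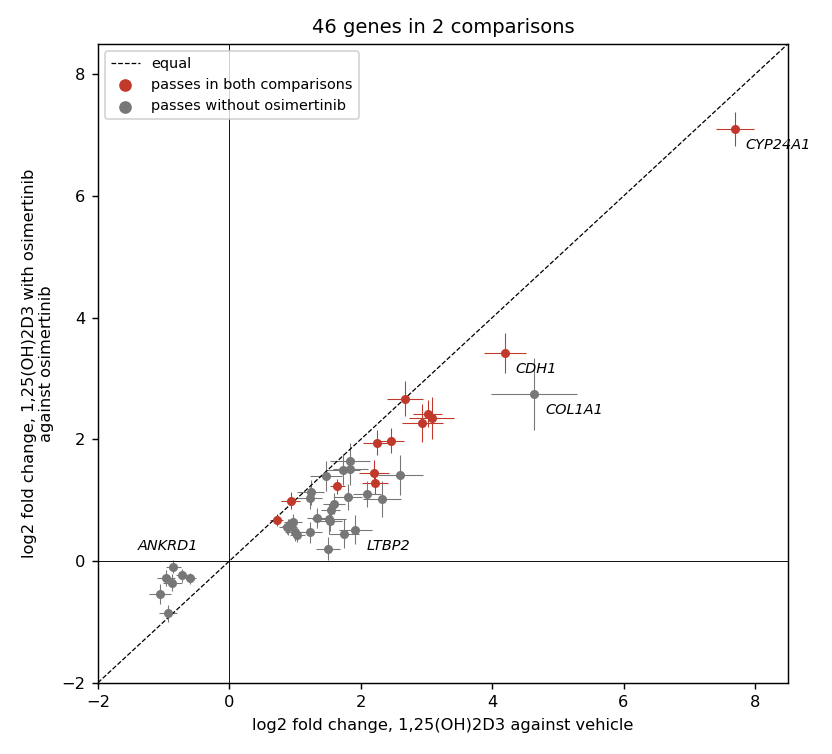
Log2 fold change of 46 of the 47 genes for 1,25(OH)2D3 against vehicle (x axis) and for 1,25(OH)2D3 with osimertinib against osimertinib (y axis), with standard errors, leaving out ALPI because its vehicle level is 0. Red points passed in both comparisons, the dashed line marks equal effects, and all points share their sign while most of those above 0 lie under the line.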

How the data were processed

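RNA of H1975-OR cells was sequenced from ribosomal RNA-depleted, stranded libraries. Per the labels and the study's methods, the authors quantified reads with kallisto and summed transcripts to genes, which gives estimated counts that need not be whole, and the deposited table holds those for 19612 gene symbols in 15 libraries. The submitters' processing notes also name kallisto 0.43.0, STAR 2.5.2b, CASAVA 1.8.2 and GRCh38. Whether strand was used in counting is not given in the sources used here. Estimated counts split reads between near-identical genes by a model.

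Estimated counts were rounded and tested in R 4.3.3 with edgeR 4.0.16. Genes were kept by filterByExpr (minimum count 10, minimum total 15), scaled by TMM, and fitted by quasi-likelihood over the 12 H1975-OR libraries with group and replicate letter as terms (6 residual degrees of freedom). All tests were two-sided with Benjamini-Hochberg adjustment over 12350 genes at 0.05. The letters pair the libraries: deviations from the group mean correlated at 0.31, 0.17 and 0.19 between same-letter vehicle and 1,25(OH)2D3 libraries, and each library correlated best with its own letter. The methods describe separate passages and the labels give letters alone, so that each letter is a passage is a reading of both. With the letter as a block, differences between letters are taken out. The p-values measure the spread that remains over the 12 libraries. CPM used TMM-scaled totals, and letter pair differences log2 CPM with a prior count of 2. Totals of 4378030 to 6140120 estimated counts over the 12 libraries limit genes under a few CPM.

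Genes named were: CYP24A1, VDR, RXRA, CYP27B1, CDH1, CLDN4, MMP2 and VIM; the 15 largest rises and up to 10 largest falls that passed, with a mean of at least 5 CPM in the higher group and one sign in 3 pairs; every list member that passed; per list, up to 2 largest rises and 2 largest falls at a mean of 10 CPM or more, as values only; and genes for which the difference between both effects passed. Other genes were named after their values were seen: other genes that passed, CAMP and DUSP10, markers, and the genes of the closing paragraphs. Of the 26 lists, 23 were written for this work and 3 come from the phase genes of Seurat 5.3.0. The members and lists were chosen with earlier results of these data known. Values of 2 genes are not reported here, and both were taken out of the lists after their values had been seen, while they stay in the fit and in the counts over all genes. Promoters came from RefSeq (GRCh38.p14) and gene positions from GENCODE v44 on GRCh38. The edgeR fit was tested on simulated data. Alternatives were RLE scaling, DESeq2 1.42.0, other filters, no block, fewer libraries and each library left out.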

Additional observations from a re-analysis of the deposited data

How the results depend on the processing

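Direction held for all 47 genes under each of the 15 alternatives in which they were tested, the strictest filter having dropped ALPI. Of the 47, 13 passed whichever of the 6 libraries was left out, and CYP24A1 alone passed every alternative. The count of 47 became 46 with RLE scaling, 51 with no filter and 58 with at least 10 counts in every library. It became 241 with DESeq2, all 47 among them. The 241 are not split by direction here. Directions that DESeq2 gave within lists thus have no split over all genes beside them. Without the replicate block the count of 47 became 18, and 12 without both the block and 3a. The 6 libraries alone gave 3 with the block and 6 without it, and the 5 libraries the study kept gave 9 without the block, 8 of them among the 47. Leaving out one library gave 13 to 48. For 1,25(OH)2D3 added to osimertinib, 22 genes became 103 with DESeq2, 5 without the block and 7 to 33 with one library left out. The difference between both effects gave 13 genes with DESeq2 and 0 under each other alternative. The median of the receptor targets, 1.79, was 1.00 with the stricter filter, which tested 13 of them, 1.08 without 3a and the block in 11 or in 5 libraries, and 1.12 to 1.82 with one library left out. The phase genes' median, −0.34, was −0.57 without 3a and the block, in 11 or in 5 libraries. RXRA, 0.24, ranged from −0.18 to 0.82 with one library left out. Among the named genes CLDN4 passed in DESeq2 and in no other analysis. The 6 libraries alone leave 2 residual degrees of freedom with the block, and the cause of the other differences was not tested. Genes under a few CPM cannot be read at this depth.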

Other observations

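Without 3a, 12 further genes passed that did not pass with it (edgeR, adjusted p under 0.05). They were named after their values were seen. TNFRSF1A and UBXN11 had the largest rises without 3a, at 2.73 and 2.49 on the log2 scale. PLK2, a polo-like kinase, was at 337, 150.4 and 191 CPM in 2a, 2b and 2c and at 294, 443 and 471 CPM in 3a, 3b and 3c (log2 fold change without 3a 1.31, adjusted p = 0.027). HMOX1 was at 40.5, 21.7 and 15.7 CPM with vehicle and at 66.0, 47.7 and 42.9 CPM with 1,25(OH)2D3. ASS1, which joins citrulline and aspartate in arginine synthesis, was at 602, 688 and 693 CPM with vehicle and at 805, 1090 and 998 CPM with 1,25(OH)2D3 (log2 fold change without 3a 0.66, adjusted p = 0.040). The groups of ASS1 did not overlap. The AP-1 member FOSL2, the kinase ABL1, SFXN3, PGM2L1 and DUSP10 were also higher, and CTGF was lower. ABCA2 was lower without 3a as well, but it was at 0.61, 20.4 and 27.1 CPM with vehicle and at 17.5, 0 and 0 CPM with 1,25(OH)2D3, so pair a had the opposite sign.

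With osimertinib, 4 genes were higher that did not pass without it. The death receptor FAS was at 12.9, 11.8 and 17.0 CPM with osimertinib and at 23.5, 39.3 and 50.2 CPM with the combination (log2 fold change 1.38, SE 0.20, adjusted p = 0.043). JUNB, an AP-1 member, had a log2 fold change of 1.26 with osimertinib (adjusted p = 0.047) and 0.98 without it (adjusted p = 0.088). MGP, an inhibitor of calcification, was at 1.00 on the log2 scale with the drug and 0.48 without it, and SERPINB1 at 1.14 and 0.80. MTRNR2L8, one of the MTRNR2L copies, was at 413, 490 and 640 CPM with osimertinib and at 107, 150.2 and 170 CPM with the combination. In the libraries without osimertinib it was at 275, 410.3 and 568 CPM with vehicle and at 201, 493 and 468 CPM with 1,25(OH)2D3, so there the groups overlapped.

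In the 6 libraries, 70 of 12350 tested genes were at 0 in at least 1 library and at 20 CPM or more in another, as RRM1 and ABCA2 were. Of the 47 genes that passed, 0 showed this pattern.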
